A study of Homo sapiens with 13 samples.

Results

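The genes described here are the sirtuins *SIRT1* to *SIRT7*, *NAMPT*, and the PGC-1 coactivator genes *PPARGC1A* and *PPARGC1B*, a set often proposed as the route by which resveratrol acts. They were chosen by name: a row of the count table belonged to the set when its Ensembl identifier carried one of these symbols, and 10 of the 43836 genes in the table did. The choice went by symbol alone, without a threshold on any value, but was made with earlier results of these data known. Of the 10 genes, 9 passed the filter on low counts and were tested among 17092 genes. *PPARGC1A* did not pass.

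The cells were hFOB 1.19, a line of human fetal osteoblasts (bone-forming cells) immortalized with a temperature-sensitive SV40 large T antigen, and all groups come from this 1 line. Positive controls (n = 2 libraries) were grown with 10% fetal bovine serum (FBS) and negative controls (n = 2) without it, and per the study's methods both carried the DMSO vehicle. The treated groups were serum-free and received 1 µg/mL of resveratrol (RES, n = 3), a stilbene, of peonidin-3-O-glucoside (POG, n = 3), an anthocyanin glycoside, or of the compound labelled DEG (n = 2). The treatment protocol names delphinidin-3-glucoside as the remaining compound, but the labels do not spell out DEG or give a treatment time. Per the study's methods RES or POG was added to replicate wells, but no label says whether each library of a group came from its own well or culture, so the p-values measure the spread between these libraries, which may be technical.

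Sirtuins are deacylases that consume NAD+ each time they remove an acyl group from a protein. *SIRT1*, *SIRT6* and *SIRT7* act mainly in the nucleus, *SIRT2* mainly in the cytoplasm, and *SIRT3*, *SIRT4* and *SIRT5* in mitochondria. *NAMPT* catalyses the rate-limiting step that recycles nicotinamide, the product of the sirtuin reaction, back to NAD+. SIRT1 deacetylates PGC-1α, the product of *PPARGC1A*, which together with its relative PGC-1β (*PPARGC1B*) drives genes of mitochondrial biogenesis and fat oxidation. In osteoblasts SIRT1 is known for a role in differentiation and bone mass.

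The sequence just before the *SIRT1* start is shown because *SIRT1* is the best known proposed target of resveratrol and had the narrowest range of group levels of the 9 tested genes. It is the RefSeq sequence (GRCh38.p14, plus strand, chr10:67884406-67884655) of the 250 bases that end at the base before the annotated start. Capitals mark CACGTG, the E-box, a palindrome that reads the same on both strands and is recognised by basic helix-loop-helix factors such as MYC and CLOCK.
SIRT1 promoter: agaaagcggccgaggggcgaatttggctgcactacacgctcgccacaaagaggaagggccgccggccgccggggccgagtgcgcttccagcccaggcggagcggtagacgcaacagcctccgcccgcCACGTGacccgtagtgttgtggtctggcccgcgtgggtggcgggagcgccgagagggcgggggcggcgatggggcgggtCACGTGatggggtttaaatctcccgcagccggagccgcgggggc
Both copies, which begin at positions -123 and -44 (position -1 is the last base before the start), do not overlap. Of 35116 windows of this length in the RefSeq promoter table, 2228 (6.34%) held at least 1 CACGTG. The table held 13 such windows for 9 of the 10 genes, and besides the *SIRT1* window 1 *PPARGC1A* window held the letters, once. A match is a run of letters and no evidence of binding.

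The libraries held 38464619 to 51416358 counted reads. Scaled to CPM, reads of a gene relative to the library total after TMM correction (edgeR's trimmed mean of M values), they showed high osteoblast matrix transcripts (*COL1A1*, 2463 to 2868 CPM). The osteoblast markers *SP7* and *IBSP* were at or near 0, at most 0.181 CPM for *SP7* and 1 read in all libraries together for *IBSP*. *DLX5*, *SPP1* and *BGLAP* were low as well, at most 1.84, 2.34 and 2.00 CPM. *ALPL* measured 3.22 to 6.66 CPM and *RUNX2* 44.3 to 51.6 CPM. *COL1A2* and *SPARC* were high like *COL1A1*, at 1112 to 1420 and 1019 to 1177 CPM. Summed adipocyte and skeletal muscle markers, the tissues in which PGC-1 genes are best known, stayed under 1.26 and 1.69 CPM. Summed chondrocyte markers ran from 20.5 to 30.5 CPM, nearly all of it *MATN3* (19.5 to 29.4 CPM). Mitochondrially encoded genes took 3.03% to 3.91% of reads.

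*NAMPT* was by far the most abundant transcript of the set and *PPARGC1A* the least. To compare genes, CPM was divided by the length of each gene's canonical GENCODE transcript. On this scale *NAMPT* averaged 143.8 CPM per kb over the 12 libraries, 8.341 times the next gene, which placed it at rank 384 of the 16961 tested genes with a length. Next came 4 sirtuins with similar levels per kb: *SIRT6* at 17.2, *SIRT2* at 15.6, *SIRT7* at 14.1 and *SIRT1* at 10.9. The mitochondrial sirtuins followed in the order *SIRT3* (6.86 CPM per kb), *SIRT5* (2.32) and *SIRT4* (1.61). The PGC-1 genes stood last, with *PPARGC1B* at 0.386 and *PPARGC1A* at 0.00234 CPM per kb. The nuclear, cytoplasmic and NAD-recycling members were therefore listed above every mitochondrial sirtuin, and the lowest *NAMPT* library (116 CPM per kb) lay above the highest library of any sirtuin (18.4). The order depends on the transcript length taken for each gene. In mean CPM without this division *PPARGC1B* (4.08) lay above *SIRT4* (1.965), and *SIRT1* (44.8) was the highest sirtuin.

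**Figure D1:**
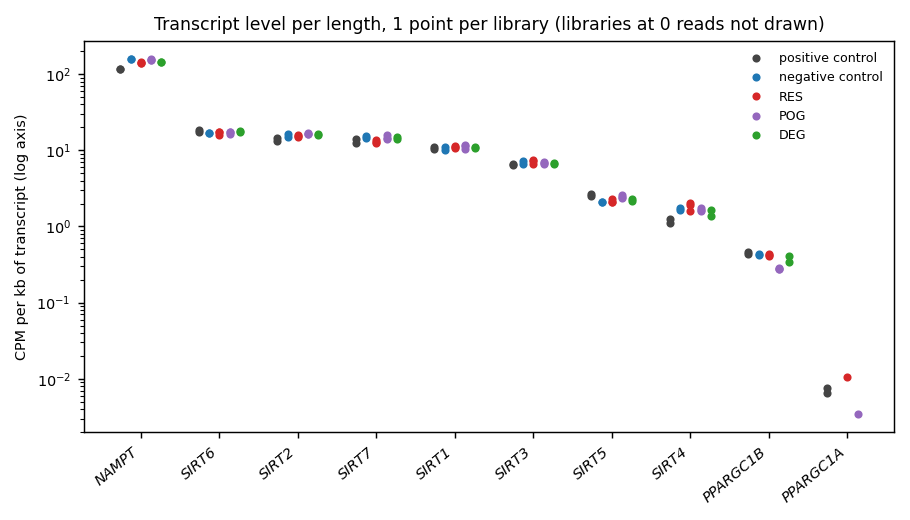
TMM-scaled CPM per kb of canonical transcript (log axis) for the 10 genes, ordered by their mean, with 1 point per library coloured by group; libraries with 0 reads are not drawn. *NAMPT* (143.8 on average) stands above the sirtuins, and *PPARGC1A* (0.00234) lies far below all others.

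The question of the first comparison is what serum does to these genes. Serum shifted a large part of the transcriptome: 7245 of the 17092 tested genes (42.4%) passed a false discovery rate (FDR) of 0.05 in edgeR's exact test between positive and negative controls. Of the 9 tested members, 4 passed, a share close to that background. With serum *NAMPT*, *SIRT2* and *SIRT4* fell and *SIRT5* rose. The median log2 fold change of the members was -0.08, against -0.01 for all tested genes. RES, POG and DEG were each compared with the same negative control libraries, so those comparisons are not independent. In them 1 of 9 members passed with RES (background 11.2% of tested genes), 2 of 9 with POG (14.5%) and 1 of 9 with DEG (9.63%). The median size of a change, sign ignored, was smaller among the members than among all tested genes with each compound: 0.06 against 0.10 log2 units with RES, 0.03 against 0.11 with POG and 0.06 against 0.10 with DEG. Between POG and RES it was larger among the members, 0.14 against 0.12. The members and all tested genes were not matched in level: 13406 of the 17092 tested genes averaged at least 1 CPM, as did all 9 tested members. How far level shapes these medians was not tested.

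**Figure D2:**
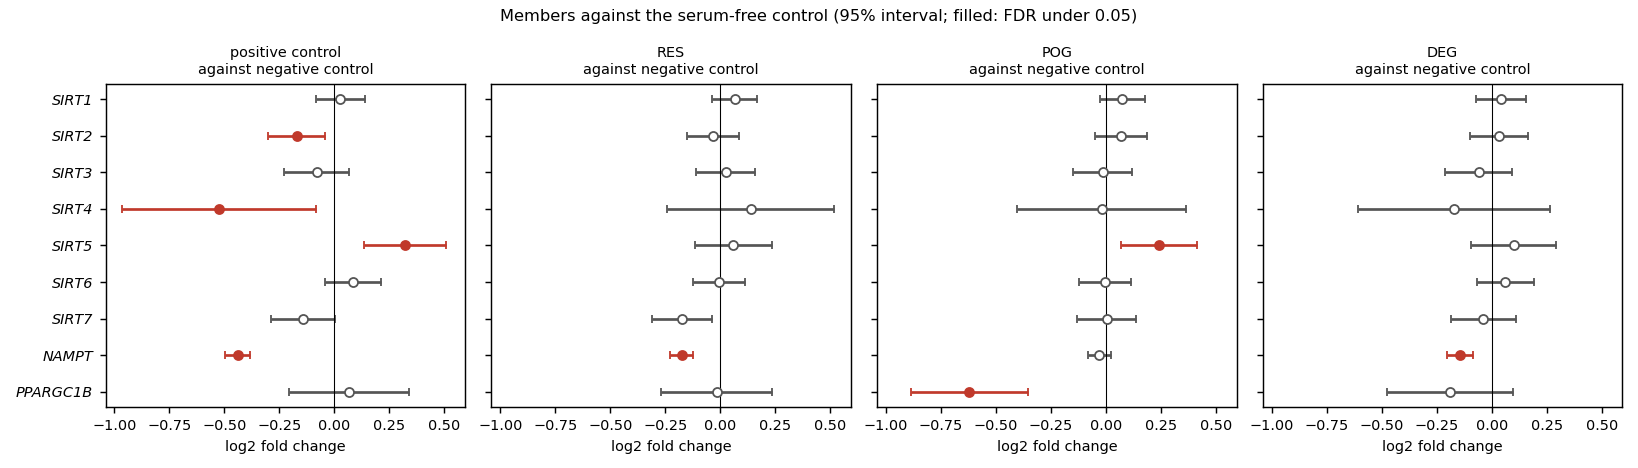
Log2 fold change (horizontal axis) of the 9 tested genes in positive controls, RES, POG and DEG as compared with the negative control; bars are unadjusted 95% intervals and filled points passed an FDR of 0.05. *NAMPT* lies below 0 with serum, RES and DEG, *PPARGC1B* with POG, and the *SIRT1* interval spans 0 in all 4 panels.

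*NAMPT* (ENSG00000105835.11, hg38 chr7:106248298-106285966, minus strand), the NAD+ recycling enzyme, was highest without serum. The negative controls measured 684 and 699.5 CPM and the positive controls 506 and 514 CPM. The RES libraries measured 627, 602 and 609.9 CPM, the POG libraries 681, 672 and 677 CPM, and the DEG libraries 623 and 627 CPM. The groups ranked from the negative control through POG, DEG and RES to the positive control, and only the ranges of RES and DEG overlapped. In the 7 comparisons made, ranges did not overlap for 31.9% to 65.6% of all tested genes.

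As compared with the negative control, *NAMPT* fell by 26.3% with serum (log2 fold change -0.44, SE 0.0283, edgeR FDR 6.02e-35). It fell by 11.4% with RES (-0.17, SE 0.0258, FDR 2.02e-06), and it fell by 9.59% with DEG (-0.15, SE 0.0283, FDR 8.24e-04). All of these changes were decreases, and the differences between serum and the compounds were not tested. With POG the log2 fold change was -0.03 (95% interval -0.08 to 0.02, FDR 0.603), so a decrease of the size seen with RES lay outside the interval. The calls with serum and RES held in every alternative analysis, and the call with DEG was lost without negative control replicate 2 (FDR 0.0718). A pseudogene, *NAMPTP1*, held 0.633% as many reads as *NAMPT*.

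*SIRT1* (ENSG00000096717.11, chr10:67884656-67918390, plus strand), the nuclear deacetylase that acts on histones, p53 and PGC-1α, had nearly the same transcript level in every group. Positive controls measured 43.3 and 45.2 CPM and negative controls 44.8 and 42.0 CPM. RES libraries measured 44.2, 45.8 and 46.2 CPM, POG libraries 46.5, 47.8 and 42.9 CPM, and DEG libraries 45.1 and 44.2 CPM. All groups overlapped one another, and the group means spanned only 0.07 log2 units, the narrowest range of the 9 tested genes.

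None of the 7 comparisons called *SIRT1*, and none of the alternative analyses did. Its log2 fold change against the negative control was 0.07 with RES (SE 0.0499, 95% interval -0.04 to 0.17, FDR 0.504), so an increase above 0.17 lay outside the interval. With POG it was 0.07 (interval -0.03 to 0.18, FDR 0.390), with DEG 0.04 (-0.07 to 0.15, FDR 0.772) and with serum 0.03 (-0.08 to 0.14, FDR 0.756). These values concern transcripts and say nothing of SIRT1 enzyme activity, which was not measured here.

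*SIRT6* and *SIRT7*, the other nuclear sirtuins, act on chromatin at DNA breaks and telomeres and on ribosomal gene transcription, respectively. *SIRT6* (ENSG00000077463.14, chr19:4174109-4182566, minus strand) ranged from 25.2 to 29.4 CPM over all libraries and passed in none of the comparisons. Its log2 fold changes against the negative control lay between -0.01 and 0.08. *SIRT7* (ENSG00000187531.13, chr17:81911939-81921323, minus strand) measured 24.8 and 26.3 CPM in the negative controls and 21.8, 22.3 and 23.9 CPM with RES. All RES libraries were below both negative controls, and these groups did not overlap in 40.9% of all tested genes. The *SIRT7* difference did not pass (log2 fold change -0.17, SE 0.0661, 95% interval -0.31 to -0.04, FDR 0.0740). It did pass when the dispersions came from those groups alone (FDR 0.0315) or without RES replicate 3 (FDR 0.0473). POG libraries measured 24.9, 27.4 and 24.6 CPM, DEG libraries 24.3 and 25.5 CPM, and positive controls 24.6 and 21.6 CPM. With serum *SIRT7* passed under plain library totals (FDR 0.0263) and without positive control replicate 1 (FDR 0.0139), and missed in the main test (-0.14, FDR 0.103).

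*SIRT2*, a tubulin deacetylase (ENSG00000068903.19, chr19:38878555-38899862, minus strand), measured 27.4 and 24.5 CPM in positive controls and 30.5 and 28.1 CPM in negative controls. The ranges did not overlap, as was so for 65.6% of all tested genes between these groups. *SIRT2* fell by 11.2% with serum (log2 fold change -0.17, SE 0.0642, edgeR FDR 0.0220). The call was lost without positive control replicate 2 (log2 fold change -0.09, FDR 0.348) or negative control replicate 1 (-0.11, FDR 0.313), and with dispersions from the groups compared (FDR 0.0884). Across RES, POG and DEG its level ran from 27.6 to 31.3 CPM, and no compound passed against the negative control.

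Of the mitochondrial sirtuins, *SIRT5* was the one that rose. SIRT5 removes succinyl, malonyl and glutaryl groups from mitochondrial proteins. The gene (ENSG00000124523.15, chr6:13574227-13615158, plus strand) measured 9.53 and 9.55 CPM in negative controls and 12.3 and 11.5 CPM in positive controls. RES libraries measured 9.71, 10.6 and 9.53 CPM, POG libraries 10.9, 11.2 and 11.8 CPM, and DEG libraries 9.92 and 10.5 CPM. Positive controls and POG lay wholly above the negative controls and above DEG, while RES overlapped the negative controls. Against the negative controls, groups did not overlap in 65.6% of all tested genes with serum and 44.1% with POG.

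*SIRT5* rose by 24.9% with serum (log2 fold change 0.32, SE 0.0910, edgeR FDR 0.00195) and by 18.3% with POG (0.24, SE 0.0842, FDR 0.0366). The serum call was lost without positive control replicate 1 (FDR 0.0502). The POG call was held in 5 of 12 alternative analyses. It was lost in the quasi-likelihood test (FDR 0.0552), in DESeq2 (FDR 0.0824), without a filter on low counts (FDR 0.0708) and without negative control replicate 1 (FDR 0.208), negative control replicate 2 (FDR 0.194), POG replicate 2 (FDR 0.0656) or POG replicate 3 (FDR 0.158). With RES the log2 fold change was 0.06 (95% interval -0.12 to 0.23) and with DEG 0.10 (-0.09 to 0.29).

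*SIRT3*, the main mitochondrial deacetylase (ENSG00000142082.14, chr11:215030-236931, minus strand), ran from 18.6 to 21.3 CPM over all libraries and passed in no comparison. *SIRT4* (ENSG00000089163.4, chr12:120302316-120313249, plus strand), a mitochondrial ADP-ribosyltransferase and lipoamidase, rested on 65 to 112 reads per library. It measured 1.34 and 1.54 CPM in positive controls and 1.99 and 2.14 CPM in negative controls. RES libraries measured 2.35, 1.94 and 2.51 CPM, POG libraries 1.95, 2.15 and 2.00 CPM, and DEG libraries 1.68 and 1.98 CPM. Positive controls were below all other libraries. They did not overlap the negative controls in 65.6% of all tested genes.

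With serum *SIRT4* fell by 30.5% (log2 fold change -0.53, SE 0.216, edgeR FDR 0.0367). The call was lost in 8 of 11 alternative analyses, among them the quasi-likelihood test (FDR 0.0511), DESeq2 (FDR 0.0829) and the removal of any 1 library, whose largest FDR was 0.265 without positive control replicate 1. The intervals with the compounds were wide: -0.24 to 0.52 with RES, -0.40 to 0.37 with POG and -0.61 to 0.26 with DEG. The interval with DEG thus includes the value measured with serum.

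*PPARGC1B*, which encodes PGC-1β (ENSG00000155846.16, chr5:149730298-149855022, plus strand), was the one of the PGC-1 members with enough reads to test, and it was lower with POG. It measured 4.61 and 4.93 CPM in positive controls and 4.65 and 4.45 CPM in negative controls. RES libraries measured 4.66, 4.47 and 4.35 CPM and DEG libraries 4.31 and 3.66 CPM, whereas POG libraries measured 2.93, 3.02 and 2.93 CPM. All POG libraries were below every other library, and positive controls, negative controls and RES overlapped. POG did not overlap the negative controls in 44.1% of all tested genes, RES in 42.1% and DEG in 31.9%. In reads, POG libraries held 132 to 136 and the others 144 to 228.

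As compared with the negative control, *PPARGC1B* decreased by 35.0% with POG (log2 fold change -0.62, SE 0.130, edgeR FDR 6.18e-05). This was the largest change of any member against the negative control, and the call held in 12 of 12 alternative analyses, with FDR at most 0.00851. RES gave -0.02 (95% interval -0.27 to 0.24, FDR 0.981), DEG gave -0.19 (-0.48 to 0.10, FDR 0.489) and serum gave 0.07 (-0.21 to 0.34, FDR 0.742). Summed endothelial markers were also lowest with POG, at 35.2 to 37.3 CPM, against 42.3 to 44.1 in negative controls and 52.8 to 59.5 with RES. They were 38.1 to 38.6 CPM with DEG, with which *PPARGC1B* was not called, and 56.5 to 59.7 CPM in positive controls. Nearly all of that sum was *TEK* (33.1 to 56.7 CPM), with *CDH5* at most 0.112 CPM, and its part in the *PPARGC1B* result was not tested. Other sums differed too. With POG the osteoblast sum was 4751 to 4787 CPM, against 5262 to 5320 in negative controls and 4763 to 4769 with DEG. It was 4906 to 5034 CPM with RES and 5461 to 5523 in positive controls. Nearly all of it was *COL1A1*, *COL1A2* and *SPARC*, so it says little of the other osteoblast markers. The blood and macrophage sum was lower with POG than in negative controls (2.88 to 3.28 against 3.37 to 4.18 CPM). It was lower with DEG too (2.6599 to 3.0014 CPM). With RES it overlapped the negative controls (3.66 to 4.04 CPM), and positive controls were higher (4.43 to 4.96 CPM). The chondrocyte sum was higher with POG than in negative controls (25.2 to 26.6 against 20.5 to 22.8 CPM). It was higher as well with RES (29.02 to 30.55), with DEG (25.2 to 26.2) and in positive controls (23.77 to 26.01). So neither shift was seen with POG alone. The adipocyte and muscle sums of POG and negative controls overlapped. All libraries come from the same osteoblast line, so these sums are transcript levels in that line and no measure of other cell types. In bulk RNA, fewer cells with a transcript and less of it per cell cannot be told apart.

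*PPARGC1A*, which encodes PGC-1α (ENSG00000109819.8, chr4:23755041-23904089, minus strand), was close to undetected. It had 8 reads in 4 of the 12 libraries: 2 in each positive control, 3 in RES replicate 2 and 1 in POG replicate 3. The pooled level was 0.0437 CPM in positive controls (exact 95% Poisson interval 0.0119 to 0.112), 0.0224 with RES (0.00462 to 0.0655) and 0.00737 with POG (1.87e-04 to 0.0411). With 0 reads, the negative controls and DEG allow up to 0.0470 and 0.0473 CPM by the same interval, and 3 reads would be 0.0382 and 0.0384 CPM. These bounds cover counting error only. Without a filter on low counts *PPARGC1A* had an edgeR FDR of 0.574 for serum and of 1 in the other comparisons, so no difference was detectable at this depth.

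**Figure D3:**
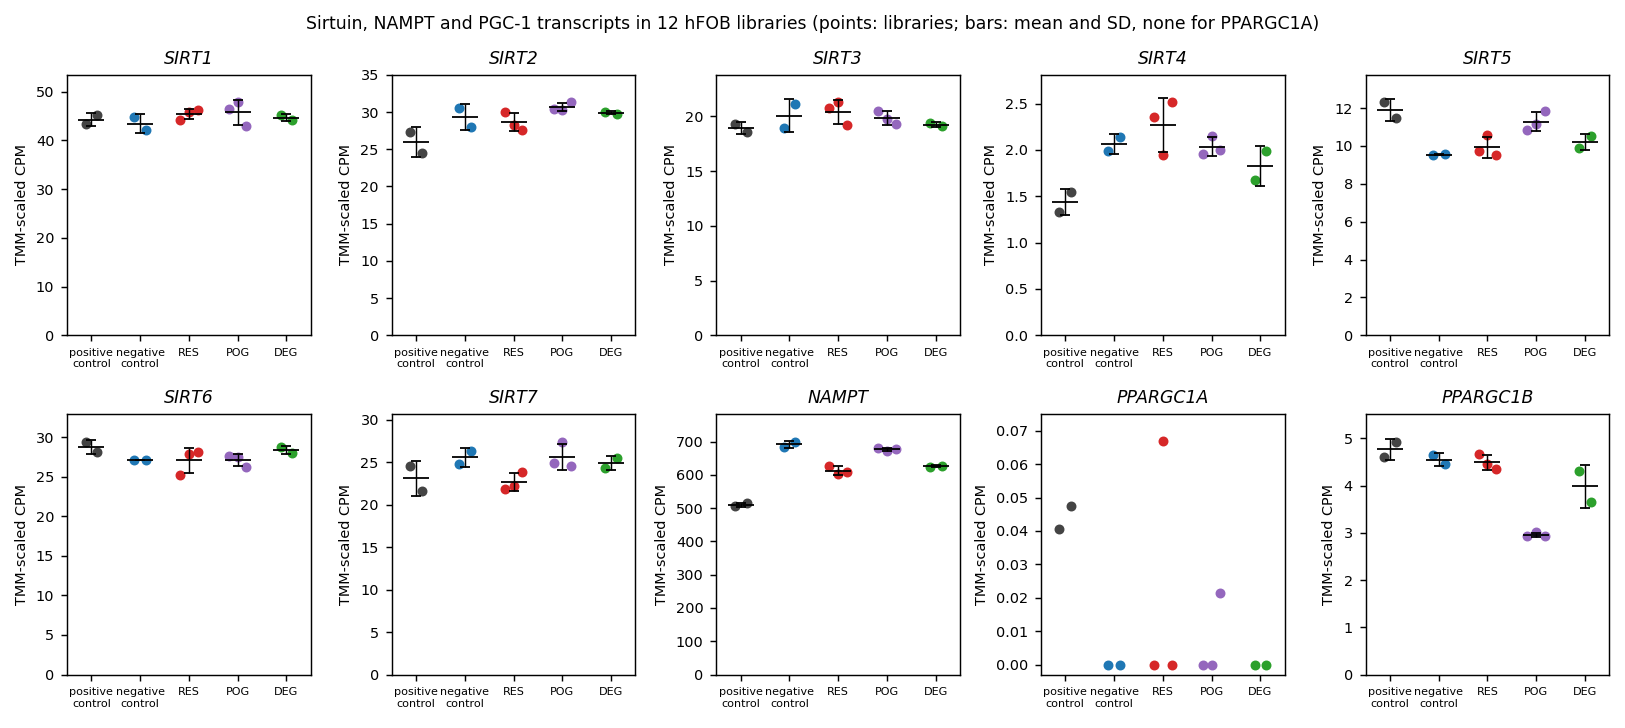
TMM-scaled CPM (vertical axes, each with its own scale from 0, set just below 0 for *PPARGC1A*) of the 10 genes in the 12 libraries by group; points are libraries and bars the mean and SD, not drawn for *PPARGC1A*. *NAMPT* is lowest in positive controls (506 and 514 CPM), the POG points of *PPARGC1B* (2.93 to 3.02 CPM) lie below all others, and the *SIRT1* groups overlap.

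The compounds were then compared with one another, at 1 µg/mL each, a match by mass and not by molarity. RES is a stilbene and POG a glycosylated flavonoid. Between them 4763 tested genes (27.9%) passed, and 4 of 9 members did. *NAMPT*, *SIRT5* and *SIRT7* were higher with POG and *PPARGC1B* was higher with RES. *NAMPT* was 10.4% higher with POG (log2 fold change 0.14, SE 0.0230, edgeR FDR 5.31e-06). *PPARGC1B* was lower with POG by a log2 fold change of -0.60 (SE 0.115, FDR 2.22e-06). Both calls held in 13 of 13 alternative analyses.

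*SIRT7* was higher with POG by 0.18 (SE 0.0583, edgeR FDR 0.0136). Its libraries did not overlap, as was so for 42.1% of all tested genes between POG and RES. The *SIRT7* call was lost without RES replicate 1 (FDR 0.0892), RES replicate 2 (FDR 0.0660) or POG replicate 2 (FDR 0.156). *SIRT5* was higher with POG by 0.18 as well (SE 0.0731, FDR 0.0490), a call that held in 4 of 13 alternative analyses and reached an FDR of 0.216 without POG replicate 3. It was also lost in DESeq2 (FDR 0.101), the quasi-likelihood test (FDR 0.0640), with plain library totals (FDR 0.0530), with no filter (FDR 0.101), and without RES replicate 1 (FDR 0.142), RES replicate 3 (FDR 0.184), POG replicate 1 (FDR 0.0522) or POG replicate 2 (FDR 0.0865).

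The other members gave no call between RES and POG. *SIRT1* differed by 0.01 (95% interval -0.08 to 0.10), *SIRT6* by 0.00 (-0.10 to 0.10), *SIRT3* by -0.04 (-0.16 to 0.08), *SIRT2* by 0.10 (-0.01 to 0.20) and *SIRT4* by -0.16 (-0.49 to 0.18). For *SIRT1*, *SIRT3* and *SIRT6* differences beyond 0.16 in either direction thus lay outside the intervals, while for *SIRT4* they did not.

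DEG and RES differed in 3616 tested genes (21.2%) and in 0 of 9 members by edgeR's exact test. One member, *SIRT7*, had an unadjusted p under 0.05 (log2 fold change 0.14, FDR 0.147), and no member passed in DESeq2 or the other alternatives. *NAMPT*, which fell with each of them against the negative control, differed by 0.03 between DEG and RES (95% interval -0.02 to 0.08, FDR 0.590). DEG and POG differed in 179 tested genes (1.05%) and in 1 of 9 members. *NAMPT* was lower with DEG than with POG (-0.11, SE 0.0258, FDR 0.0361), a call lost without any 1 of the 5 libraries compared (FDR 0.117 to 0.405) and without a filter on low counts (FDR 0.133). *PPARGC1B* was 0.43 higher with DEG (95% interval 0.16 to 0.70), and this did not pass (FDR 0.0932). Its libraries did not overlap, as was so for 31.9% of all tested genes between DEG and POG.

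**Figure D4:**
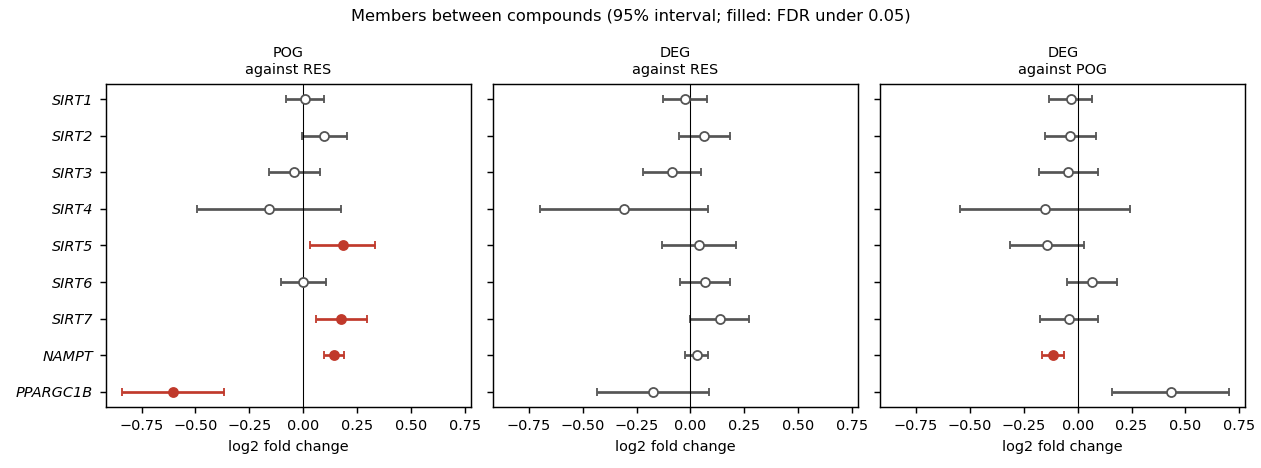
Log2 fold change (horizontal axis) of the 9 tested genes between compounds (POG against RES, DEG against RES, DEG against POG); bars are unadjusted 95% intervals and filled points passed an FDR of 0.05. *NAMPT* is higher (0.14) and *PPARGC1B* lower (-0.60) with POG than with RES, no gene is filled for DEG against RES, and the *SIRT1* interval spans 0 in each panel.

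The pathway around these genes was described with 5 lists, of which 82 of 94 genes were tested. With serum, 20 of the 82 rose and 23 fell (52.4%, against 42.4% of all tested genes). With RES 3 rose and 6 fell (11% against 11.2%), with POG 4 rose and 7 fell (13.4% against 14.5%), and with DEG 2 rose and 6 fell (9.76% against 9.63%). With each compound the share over the 82 genes together was thus close to that of all genes, but single lists lay on both sides of it, as given below. These counts moved with single libraries: the 9 calls with RES became 4 without negative control replicate 1, the 11 with POG became 7 and 5 without negative control replicates 1 and 2 and 6 without POG replicate 2, and the 8 with DEG became 3 and 5 without those controls and 4 without DEG replicate 2.

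The list of NAD synthesis and transport held 14 tested genes besides *NAMPT*. It also takes in *NNMT*, *NADK* and *NADK2*, which use up nicotinamide or NAD+, so a fall in this list need not be a fall in NAD synthesis genes. With serum 2 rose and 5 fell, with RES 2 rose and 2 fell, with POG 1 rose and 4 fell, and with DEG 3 fell. As shares these were 50% with serum (42.4% of all tested genes), 28.6% with RES (11.2%), 35.7% with POG (14.5%) and 21.4% with DEG (9.63%). *IDO1*, which opens the breakdown of tryptophan from which NAD+ can be made anew, measured 8.70 and 12.0 CPM in negative controls and 3.28 and 3.72 CPM in positive controls. It measured 6.26, 5.83 and 5.64 CPM with POG, 5.71 and 6.08 CPM with DEG, and 10.5, 9.21 and 10.8 CPM with RES. *IDO1* fell with serum (log2 fold change -1.57, edgeR FDR 1.34e-28), with POG (-0.81, FDR 2.36e-10) and with DEG (-0.81, FDR 4.56e-08), while its RES libraries lay within the range of the negative controls.

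*QPRT*, a later enzyme of that route, which makes nicotinic acid mononucleotide, measured 18.2 and 18.8 CPM in negative controls and 26.3, 25.1 and 24.4 CPM with RES. It rose with RES (log2 fold change 0.45, edgeR FDR 4.74e-09). With serum it fell, at 10.8 CPM in both positive controls (-0.78, FDR 2.78e-20). *NMRK1*, which phosphorylates nicotinamide riboside, rose with RES as well (0.27, FDR 0.0265), but the call was lost in DESeq2 (FDR 0.0591) and without negative control replicate 1 (FDR 0.268), negative control replicate 2 (FDR 0.117) or RES replicate 1 (FDR 0.181). *NMNAT2*, a nucleotide adenylyltransferase best known from axons, rose with serum (0.81, FDR 8.53e-05). *SLC25A51*, the mitochondrial NAD+ carrier, fell with POG (-0.32, FDR 0.0120), which was not called without negative control replicate 1 (FDR 0.239), POG replicate 1 (FDR 0.0852) or POG replicate 2 (FDR 0.0805). *SLC12A8* fell with DEG (-0.57, FDR 0.0110), which was not called without negative control replicate 1 (FDR 0.0754), negative control replicate 2 (FDR 0.104) or DEG replicate 2 (FDR 0.203).

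Among 9 other NAD-consuming enzymes, 1 rose and 3 fell with serum, 2 rose with POG, and 1 rose and 1 fell with DEG. The share that passed was 44.4% with serum (42.4% of all tested genes), 0% with RES (11.2%), 22.2% with POG (14.5%) and 22.2% with DEG (9.63%). With RES the count was 0 in edgeR's exact test, in its quasi-likelihood test and in DESeq2, and 2 had an unadjusted p under 0.05. *PARP2*, a DNA damage-activated ADP-ribosyltransferase, measured 76.3 and 79.5 CPM in negative controls and 95.4, 94.0 and 102 CPM with POG. It rose with POG (log2 fold change 0.32, edgeR FDR 4.11e-11) and with DEG (0.23, FDR 6.14e-05). *PARP1* rose slightly with POG (0.09, FDR 0.0290) and *PARP3* fell with DEG (-0.21, FDR 0.0144), but both calls were lost without any 1 library of the groups compared (FDR 0.0624 to 0.280 for *PARP1*, 0.0633 to 0.174 for *PARP3*), and that of *PARP1* also with no filter (FDR 0.0887). The tankyrase *TNKS* (-0.27, FDR 5.42e-07) and *PARP4* (-0.25, FDR 8.06e-07) fell with serum, *PARP4* by -0.15 without positive control replicate 1.

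Of 20 tested regulators of SIRT1 and PGC-1 (AMPK subunits and kinases, acetyltransferases, CREB coactivators), 5 rose and 5 fell with serum, and 1 each passed with RES, POG and DEG. That is 50% with serum (42.4% of all tested genes) and 5% with each compound (11.2% with RES, 14.5% with POG and 9.63% with DEG). *PRKAG2*, an AMPK γ subunit, and the methyltransferase *PRMT1* rose with serum (log2 fold changes 0.47 and 0.31, edgeR FDR 1.64e-13 and 3.13e-12). *PRKAB2*, an AMPK β subunit, fell with RES (-0.23, FDR 0.00983), *CRTC1*, a CREB coactivator, rose with POG (0.16, FDR 0.00713), and *KAT2A*, the acetyltransferase that opposes SIRT1 on PGC-1α, fell with DEG (-0.16, FDR 0.00867). The *PRKAB2* call was lost without negative control replicate 1 (FDR 0.187), negative control replicate 2 (FDR 0.0585) or RES replicate 3 (FDR 0.112), that of *CRTC1* without negative control replicate 2 (0.10, FDR 0.369), and that of *KAT2A* without any 1 library compared (FDR 0.0672 to 0.122).

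The list of PGC-1 partners held 17 tested genes, namely transcription factors that PGC-1 proteins bind and *PPRC1*, itself a coactivator of the PGC-1 family. Of these 2 rose and 7 fell with serum, 1 rose with RES and 1 fell with POG. The shares were 52.9% with serum (42.4% of all tested genes), 5.88% with RES (11.2%), 5.88% with POG (14.5%) and 0% with DEG (9.63%). With DEG the count was 0 in the exact test, the quasi-likelihood test and DESeq2, and 3 had an unadjusted p under 0.05. *PPARD*, a fatty acid-sensing nuclear receptor, rose with serum (log2 fold change 0.45, edgeR FDR 8.79e-20) and with RES (0.21, FDR 4.82e-05). *PPARA* fell with serum (-0.30, FDR 2.71e-08). *PPRC1*, named here after its values were seen, averaged 130.1 CPM over the libraries, rose with serum (0.15, FDR 0.00116) and gave -0.01 with POG (FDR 0.950). *ESRRA*, a main partner of PGC-1 on mitochondrial genes, fell with POG (-0.15, FDR 0.0376), but that call held in 4 of 12 alternative analyses. It was lost in the quasi-likelihood test (FDR 0.0536), in DESeq2 (FDR 0.0675), with plain library totals (FDR 0.0911), with no filter (FDR 0.103), and without either negative control (FDR 0.204 and 0.202), POG replicate 1 (FDR 0.190) or POG replicate 2 (FDR 0.113).

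Of 22 tested PGC-1 target genes of mitochondria and fat oxidation, 10 rose and 3 fell with serum, 3 fell with RES, 2 fell with POG, and 1 rose and 1 fell with DEG. As shares, 59.1% passed with serum (42.4% of all tested genes), 13.6% with RES (11.2%), 9.09% with POG (14.5%) and 9.09% with DEG (9.63%). *PDK4*, under the 1 CPM set for naming and named here after its values were seen, fell with POG. It averaged 0.317 CPM against 0.838 in negative controls (-1.40, edgeR FDR 0.00144), and alternatives are not given for it. *CPT1A*, the carnitine transferase that admits long-chain fatty acids to mitochondria, measured 74.3 and 73.6 CPM in negative controls and 57.4, 58.4 and 58.0 CPM with RES. POG libraries measured 65.4, 59.4 and 62.6 CPM and DEG libraries 66.2 and 62.2 CPM, all below the negative controls. Such non-overlap held for 44.1% of all tested genes with POG and 51.8% with DEG. Positive controls measured 50.9 and 57.3 CPM. *CPT1A* fell with serum (log2 fold change -0.45, edgeR FDR 2.31e-15), RES (-0.35, FDR 1.49e-10), POG (-0.24, FDR 2.25e-05) and DEG (-0.20, FDR 0.00390). The call with DEG was lost without negative control replicate 1 (FDR 0.0690) or DEG replicate 2 (FDR 0.184).

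*POLRMT*, the mitochondrial RNA polymerase, fell with RES (log2 fold change -0.19, edgeR FDR 1.13e-04), and *UQCRC2*, a subunit of respiratory complex III, rose with DEG (0.15, FDR 0.0200). Without negative control replicate 1 the *POLRMT* call was lost (FDR 0.0560), as was that of *UQCRC2* (FDR 0.301), which was also lost without DEG replicate 2 (FDR 0.305). With serum *TFB1M*, a mitochondrial ribosomal RNA methyltransferase, fell (-0.60, FDR 1.66e-16), as did *FNDC5*, the precursor of irisin (-0.95, FDR 0.0177). *FNDC5* was not called without positive control replicate 1 (-0.49, FDR 0.335) or negative control replicate 2 (FDR 0.116), and gave -1.56 without positive control replicate 2. The median log2 fold change of this list was 0.10 with serum and lay between -0.05 and 0.04 with the compounds.

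**Figure D5:**
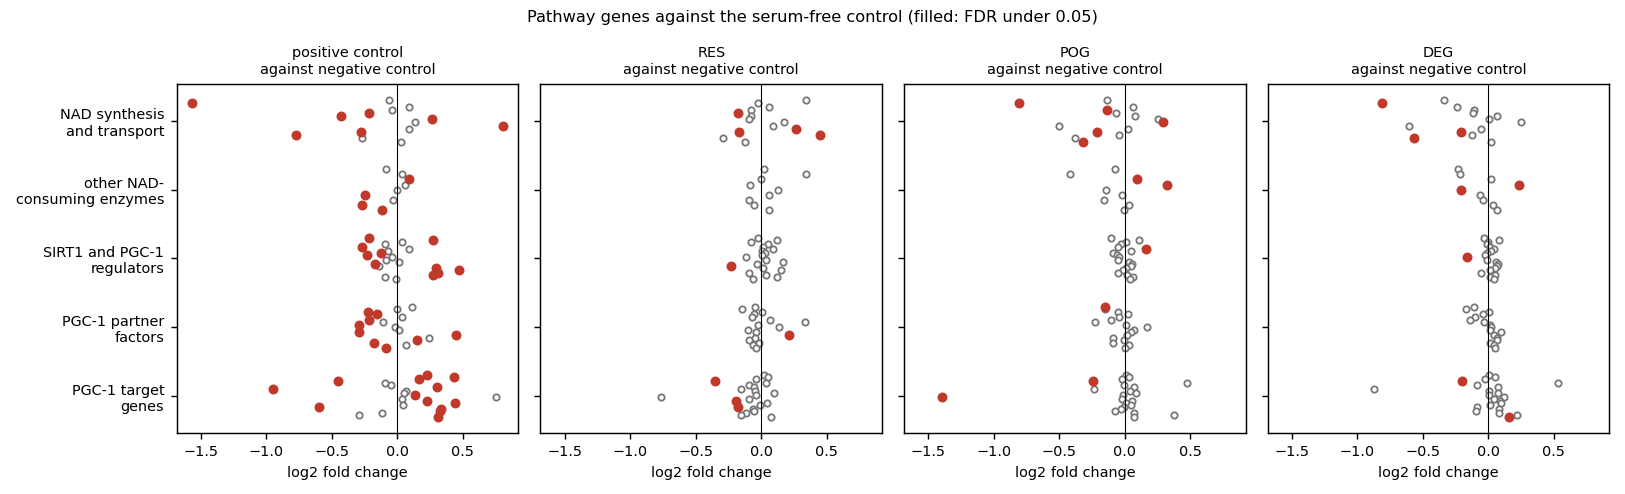
Log2 fold change (horizontal axis) of the tested genes of the 5 pathway lists (rows) against the negative control in positive controls, RES, POG and DEG; each point is a gene and filled points passed an FDR of 0.05. With serum 43 of 82 genes are filled, with RES 9, with POG 11 and with DEG 8.

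Genes whose log2 CPM followed that of a member most closely over the 12 libraries were taken for the 3 members with the widest range of group means, out of 13406 genes that averaged at least 1 CPM. The correlations are descriptions over libraries that share groups, and genes are not independent of one another. For *PPARGC1B* (range 0.68 log2 units) the closest were *PLCB1* (Pearson r 0.944), *DOK1* (0.936) and *ST6GALNAC6* (0.921), and over the 10 serum-free libraries these had r of 0.935, 0.924 and 0.960. For *SIRT4* (range 0.64) they were *ITGB4* (0.947), *SLC22A20P* (0.947) and *MDGA1* (0.941), which dropped to 0.844, 0.843 and 0.810 without the serum-fed libraries. For *NAMPT* (range 0.44) they were *SNTB1* (0.977), *NFATC4* (0.975) and *NXPH4* (0.974), with 0.894, 0.915 and 0.945 among serum-free libraries. Over the serum-free libraries alone 0 of these 3 genes stayed among the closest 3 for each of these members, so the lists depend on the libraries used.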

How the data were processed

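Polyadenylated RNA was measured in 12 hFOB libraries; of 13 labelled samples, DEG replicate 3 was not analysed here. The authors deposited raw counts per Ensembl gene, not normalized. Per their methods reads were aligned to hg38 with STAR (BWA MEM is also named) and counted with featureCounts; versions and the strand setting are not given in the sources used here, so genes that overlap carry uncertain counts. Symbols matched 43214 of 43836 identifiers (622 did not). From the counts, filterByExpr kept 17092 genes (99.967% of reads), and edgeR 4.0.16 (R 4.3.3) with TMM factors and dispersions over all 12 libraries (common biological coefficient of variation 3.212%) gave exact tests for 7 comparisons, with Benjamini-Hochberg FDR over all tested genes and 0.05 as threshold. SE and unadjusted 95% intervals came from the quasi-likelihood fit. Alternatives were the quasi-likelihood test, DESeq2 1.42.0, other scalings and filters, dispersions from the groups compared and leaving out each library. Replicate numbers follow accession order and pair nothing. The members and lists were chosen with earlier results of these data known. Named were all 10 members, per pathway list and comparison with the negative control at most the 2 called genes of largest change with a mean of at least 1 CPM, and, for the 3 members of widest range, the 3 genes of highest Pearson r. Scripts were tested on simulated data.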

Additional observations from a re-analysis of the deposited data

How the results depend on the processing

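Of 747 member values recomputed under alternatives, 705 kept their side of the threshold, 38 calls were lost and 4 were gained. The sign changed in 37 values, of which 0 were called in the main test or the alternative. The number of members called with serum was 4 and became 5 with plain library totals, 3 in the quasi-likelihood test, in DESeq2 and with no filter, 2 with dispersions from the groups compared, and 2 to 3 when 1 library was left out. With RES it was 1 and became 2 with those dispersions, and 1 to 2 without 1 library. With POG it was 2 and became 1 in the quasi-likelihood test, in DESeq2 and with no filter, and 1 to 2 without 1 library. With DEG it was 1 and became 0 to 1 without 1 library. Between POG and RES it was 4 and became 3 in the quasi-likelihood test, in DESeq2, with plain library totals and with no filter, and 2 to 3 without 1 library, and between DEG and POG it was 1 and became 0 with no filter and 0 without any 1 library. Pathway genes called numbered 9 with RES, 11 with POG and 8 with DEG. With dispersions from the groups compared they numbered 15, 20 and 13, with no filter 7 for POG, and without 1 library 4 to 10, 5 to 10 and 3 to 6. Of 30 named pathway values, 17 were called in every alternative and 13 were not called in some, each through the loss of at least 1 library. The cause of these changes was not tested; a fit without 1 of 2 libraries assumes that the lone one varies like the other groups. Plain library totals moved the median of all genes by -0.04 to 0.03 log2 units. *SIRT4* (65 to 112 reads per library) and *PPARGC1A* (8 reads in all) rest on few reads. No paired analysis was possible because the labels give no replicate numbers that tie libraries of different groups.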

Other observations

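Genes that overlap a member on the map were measured as well, since the strand setting of the counting is not known. No strand setting would separate genes on the same strand. Shared bases are those of whole gene spans, introns included, and not of the exons in which reads are counted. *NFKBIB*, which shares 163 bases with *SIRT2* on the opposite strand, moved the other way with serum (log2 fold change 0.15, edgeR FDR 0.0380). *MAFG*, which shares 3054 bases with *SIRT7* on the same strand, fell with serum (-0.41, FDR 8.81e-24) and gave 0.01 between POG and RES (FDR 0.795), where *SIRT7* gave 0.18. *RIC8A*, which shares 84 bases with *SIRT3* on the opposite strand, rose with serum (0.19, FDR 1.44e-05) and was lower with POG than with RES (-0.11, FDR 0.00472). The pseudogene *NAMPTP1* held 125 to 220 reads per library and fell with serum like *NAMPT* (-0.42, FDR 0.0209), and how many of its reads came from *NAMPT* was not tested.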
